A study of Mus musculus with 12 samples.

Results

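The colon mucosa of untreated mice was profiled on 6 single-colour arrays, from 6 of the 12 mice of the study, to describe which genes gave the brightest signal, which cells those genes come from and how much they differed between mice. All recipients were wild-type C57BL/6 mice carrying transplanted bone marrow, so blood-derived cells were meant to come from the donor, and the epithelium was the host's. In the 3 WT_untreated mice the donor was a C57BL/6 wild-type mouse, and in the 3 KO_untreated mice it was a C57BL/6 Muc1 knockout mouse. Neither group received azoxymethane (AOM), a carcinogen, or dextran sodium sulfate (DSS), a polymer in drinking water that injures the colon lining. The other 6 mice (3 WT_AOMDSS and 3 KO_AOMDSS) had AOM at 12.5 mg/kg and, from 5 days later, DSS in cycles that began at 2% for 4 days with 14 days of water after each, and ended with 2.5% for 5 days, with tissue taken 1 day after. Each sample was the scraped mucosa of 1 colon, so it holds epithelium together with the tissue beneath it. How far donor cells had replaced the host's blood cells was not stated in the labels, nor were the age and sex of the mice.

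The colon lining is a single sheet of epithelial cells folded into crypts. Absorptive colonocytes at the surface take up salt, water and short-chain fatty acids, goblet cells secrete the mucus that keeps bacteria off the surface, and stem and dividing cells at the crypt base replace both. Scattered enteroendocrine and tuft cells sense the contents of the gut, and immune cells, fibroblasts, vessels and muscle lie underneath.

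A level below is the log2 signal of a gene's brightest probe minus the 75th percentile of that array, so a level of 0 means a signal equal to that percentile. A gene was kept if the scanner software marked such a probe as well above background on each of the 6 arrays. Of 32970 genes on the array, 18063 were kept, 12223 of them with a gene symbol, and 6186 had no probe above background on any of the 6 arrays. These counts move with 1 array: KO_untreated 2 had 58.4% of its gene spots above background against 71.7% to 77.8% on the other 5, and 21063 genes were kept when it was left out. The arrays lay on 2 slides, with WT_untreated 1, 2 and 3 and KO_untreated 1 on slide 1 and KO_untreated 2 and 3 on slide 2, so marrow and slide overlapped. No spot was saturated.

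Signal is not a count of molecules, since probes differ in how strongly they bind. Among 3870 genes with 2 or more kept probes, the brightest and dimmest probe of the same gene differed by a median of 2.12 on the log2 scale, and in 19.4% of them by more than 16-fold. In the 100 brightest genes, 33 had several probes, with a median gap of 1.94. The pair of probes for Krt8 differed by only 0.12, whereas those for Prdx6 spanned 9.36 and those for Myh14 spanned 9.95. The order of genes below is therefore an order of signal, and neighbours in it are not ranked as transcripts. Actb, the cytoplasmic actin often used as an abundance standard, shows this limit: its brightest kept probe ranked 7606, while that of its close relative Actg1 ranked 292.

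Signal was concentrated in few genes. The 10 brightest genes held 4.57% ± 0.955 of the summed signal of the kept genes (SD, n = 6), the 100 brightest held 24.9% ± 1.99 and the 1000 brightest held 66.5% ± 1.69. Of the 100 brightest genes, 86 had a symbol. Among those, 26 encode proteins of the cytosolic ribosome, 11 are nuclear genes of the respiratory chain, and 10 belong to a list of cell type markers. All 3 kinds stood among the first 12 places.

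**Figure D1:**
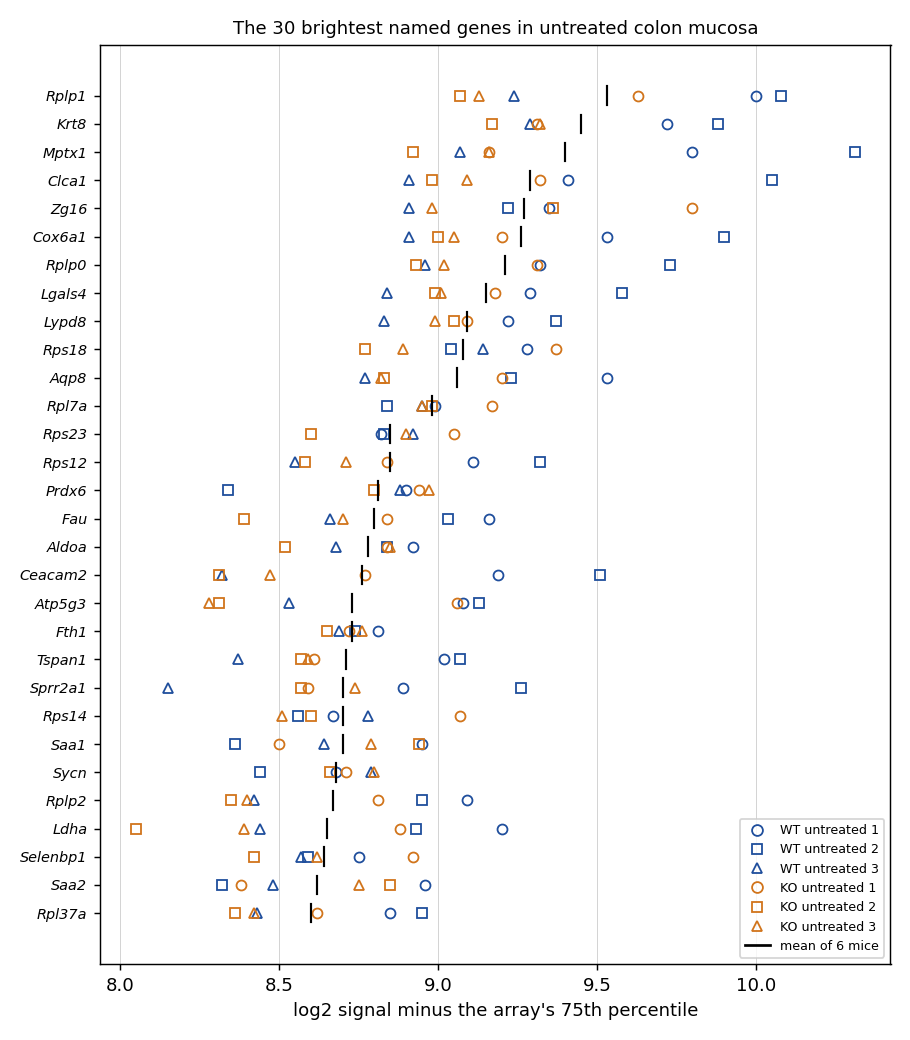
Level of the 30 brightest named genes (log2 signal minus the array's 75th percentile, horizontal axis) in each of the 6 untreated mice, WT marrow in blue and KO marrow in orange, with a bar at the mean. The genes run from Rplp1, at a mean of 9.53, to Rpl37a, at 8.60, and most neighbours overlap.

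The brightest gene was Rplp1, a protein of the ribosomal stalk, with a lowest level of 9.07 in KO_untreated 2, a median of 9.44 and a highest of 10.08 in WT_untreated 2. It ranked between 1st and 4th in every mouse. Its SD of 0.44 exceeded the distance to the next 6 genes, so its first place is not separated from theirs. Krt8, the keratin of simple epithelia, followed at 9.72, 9.88 and 9.29 in WT_untreated and 9.31, 9.17 and 9.32 in KO_untreated. It stayed within the 6 brightest genes of every mouse. Next was Mptx1, mucosal pentraxin 1, a secreted protein of gut epithelium, at 9.80, 10.31 and 9.07 in WT_untreated and 9.16, 8.92 and 9.16 in KO_untreated. Its highest mouse was 2.61 times its lowest.

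Products of goblet cells came next. Clca1, a protein secreted with mucus, lay at 9.41, 10.05 and 8.91 in WT_untreated and at 9.32, 8.98 and 9.09 in KO_untreated. Zg16, a lectin that binds Gram-positive bacteria, lay at 9.35, 9.22 and 8.91 in WT_untreated and at 9.80, 9.36 and 8.98 in KO_untreated. It was the brightest of all genes in at least 1 mouse and the 15th in another. The KO marrow mice lay within the WT marrow range for Clca1, while for Zg16 the groups overlapped in part, with KO_untreated 1 and 2 above all WT marrow mice.

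Surface colonocyte genes followed. Lgals4, a galectin of the intestinal epithelium, had a mean of 9.15 ± 0.26 (SD, n = 6). Lypd8, which binds flagellated bacteria and holds them away from the surface, ranged from 8.83 to 9.37, and its highest mouse was 1.45 times its lowest. Aqp8, the main water channel of the colon surface, lay at 9.53, 9.23 and 8.77 in WT_untreated and at 9.20, 8.83 and 8.82 in KO_untreated. Lower in the first 30 named genes were Selenbp1 (selenium binding protein 1) at 8.64 ± 0.17 (SD, n = 6), Tspan1, a tetraspanin, at 8.71 ± 0.28, Ceacam2 at 8.76 ± 0.50, Sprr2a1 at 8.70 ± 0.37, and Sycn, syncollin, a secretory granule protein best known from the pancreas, at 8.68 ± 0.13. Saa1 and Saa2, serum amyloid A proteins that the colon epithelium makes in response to bacteria, lay at 8.70 ± 0.24 and 8.62 ± 0.27.

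The remaining genes of the first 30 named are used by nearly all cells. The ribosomal proteins were Rplp0 (9.21 ± 0.31), Rps18 (9.08 ± 0.23), Rpl7a (8.98 ± 0.11), Rps23 (8.85 ± 0.15), Rps12 (8.85 ± 0.31), Rps14 (8.70 ± 0.21), Rplp2 (8.67 ± 0.32) and Rpl37a (8.60 ± 0.25), together with Fau (8.80 ± 0.27), whose product is cut to release a ribosomal protein. Energy metabolism was represented by Cox6a1, a subunit of cytochrome c oxidase (9.26 ± 0.38), Atp5g3, of the ATP synthase ring (8.73 ± 0.40), and the glycolytic enzymes Aldoa (8.78 ± 0.15) and Ldha (8.65 ± 0.42). Prdx6, a peroxide-reducing enzyme, lay at 8.81 ± 0.23, and Fth1, the heavy chain of the iron store ferritin, at 8.73 ± 0.06, all SD over 6 mice.

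Gene promoters were set beside this order for letters that the ranking did not use. RefSeq windows of 250 bases before to 50 after the start (build GRCm38.p6) were found for 69 of the 86 named genes of the 100 brightest. The sequences shown are 100 bases each, from 80 before the start. They cover a pair of ribosomal protein genes, a pair of colonocyte or crypt genes, and the paralog pairs Saa1 and Saa2 and Selenbp1 and Selenbp2, whose levels ran close together. Capitals mark TATAA on the coding strand with its first base 40 to 20 bases before the start, and a C with at least 4 pyrimidines (C or T) after it that begins at or within a few bases of the start, the kind of sequence that translation of ribosomal protein mRNAs is known to depend on.
Rps18, chr17:33955646-33955745, minus strand: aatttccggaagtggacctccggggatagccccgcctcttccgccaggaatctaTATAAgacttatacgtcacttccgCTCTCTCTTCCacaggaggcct
Rpl7a, chr2:26910727-26910826, plus strand: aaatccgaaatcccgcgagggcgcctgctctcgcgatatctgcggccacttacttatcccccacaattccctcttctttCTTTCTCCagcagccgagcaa
Mptx1, chr1:174330438-174330537, plus strand: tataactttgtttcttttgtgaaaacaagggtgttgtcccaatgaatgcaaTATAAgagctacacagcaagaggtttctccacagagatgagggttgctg
Aqp8, chr7:123462214-123462313, plus strand: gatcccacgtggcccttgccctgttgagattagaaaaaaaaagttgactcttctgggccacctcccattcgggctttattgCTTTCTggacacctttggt
Saa1, chr7:46742961-46743060, minus strand: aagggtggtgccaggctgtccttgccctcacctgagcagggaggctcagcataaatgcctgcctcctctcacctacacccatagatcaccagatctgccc
Saa2, chr7:46751753-46751852, plus strand: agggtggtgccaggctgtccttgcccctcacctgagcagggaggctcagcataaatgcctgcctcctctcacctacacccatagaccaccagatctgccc
Selenbp1, chr3:94933003-94933102, plus strand: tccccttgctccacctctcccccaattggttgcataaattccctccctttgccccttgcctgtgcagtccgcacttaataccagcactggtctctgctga
Selenbp2, chr3:94693493-94693592, plus strand: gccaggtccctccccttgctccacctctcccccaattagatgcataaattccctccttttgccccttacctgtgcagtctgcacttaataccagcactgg

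The pyrimidine start was found in 5 of 21 ribosomal protein promoters (23.8%), in 5 of 48 promoters of the other bright named genes (10.4%), and in 8.96% of all 27025 promoters. TATAA in the same window before the start was found in 9.52% and 8.33% of the first 2 sets and in 3.83% of all promoters. The letters GGGCGG, on either strand of the whole 300 bases, were in 57.1% of the ribosomal protein promoters, in 41.7% of the other bright genes, in 60.6% of all kept named genes and in 35.9% of all promoters. CCAAT, on either strand, was in 19.0%, 39.6%, 38.8% and 37.9% of the same sets. These are shares of letters in a fixed window, with no test, and the letters were chosen after the promoters were seen. The paralog windows were nearly copies. Matched without gaps, Selenbp1 and Selenbp2 shared 85 of 90 bases (94.4%) and Saa1 and Saa2 shared 83 of 100 (83.0%), against 39.4% for Rps18 and Rpl7a. The Saa2 window holds an extra C that offsets the bases before it, so the share without gaps understates the likeness of the Saa pair. Likeness of promoters does not measure likeness of the transcripts that probes read. Neither transcripts nor probe sequences were compared here, so signal crossing between paralogs was not tested. The levels of Saa1 and Saa2, Selenbp1 and Selenbp2, and Ceacam1 and Ceacam2 are uncertain to that extent.

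Cell of origin was read from marker lists. Markers of 3 epithelial classes had higher median ranks than any other cell type list. Of 23 absorptive colonocyte markers on the array all 23 were kept, 6 of them within the 100 brightest genes and 13 within the 1000 brightest, with a median rank of 514. Of 15 goblet cell markers all 15 were kept, 3 in the first 100 and 10 in the first 1000, with a median rank of 574. All 5 markers of deep crypt secretory cells were kept, with a median rank of 311, but Agr2 and Spink4 are goblet cell markers too, and Kit ranked 8391. For comparison, the first 100 and first 1000 places hold 0.704% and 6.54% of kept genes with a symbol. Muc2, the main mucin of the colon, and Fcgbp, its partner in mucus, had no probe named by symbol and are not described.

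**Figure D2:**
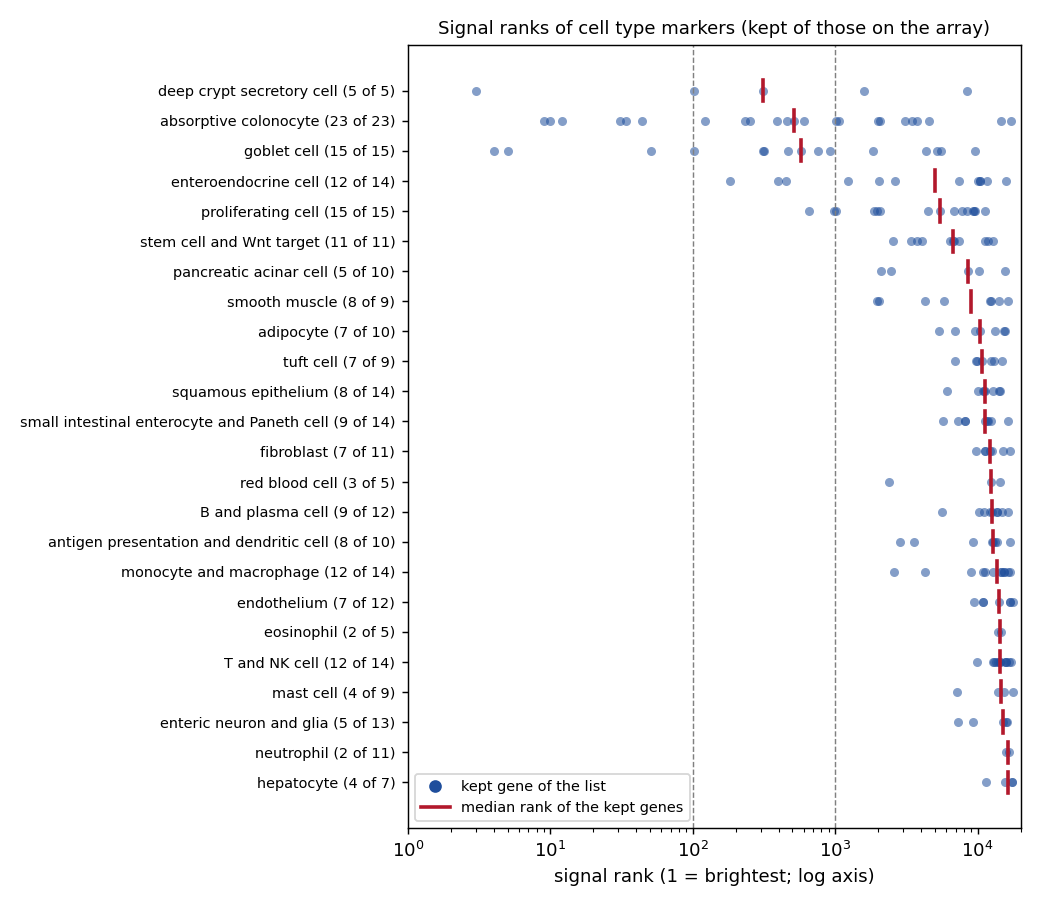
Signal rank (horizontal axis, logarithmic, 1 is brightest) of each kept marker gene, by cell type list, with the median rank in red and the number kept of those on the array in brackets. Deep crypt secretory, absorptive colonocyte and goblet cell lists have median ranks of 311, 514 and 574, and the next list, enteroendocrine cells, has 5003.5.

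The colonocyte list was led by Lgals4, Lypd8, Aqp8 and Selenbp1. Krt20, a keratin of differentiated surface cells, followed at 8.60 ± 0.50 (SD, n = 6), and Guca2a, guanylin, a peptide that drives fluid secretion, at 8.38 ± 0.61. Guca2a ranked between 17th and 82nd, high in WT_untreated 1 and 2 (8.97 and 9.13) and low in WT_untreated 3 (7.76) and KO_untreated 2 (7.67). The goblet list was led by Clca1, Zg16 and Tff3, the trefoil peptide of mucus, at 8.21 ± 0.58, with Agr2, a disulfide isomerase needed for mucin folding, just outside the first 100 at 7.59 ± 0.30.

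Genes of hormone cells, which are scattered singly through the epithelium, came next. Pyy, the ileal and colonic satiety peptide, ranked 183rd at 6.97 ± 0.34 (SD, n = 6), Insl5, a relaxin-like hormone of the distal colon, 399th at 6.10 ± 0.61, and the granins Chgb and Chga 453rd and 1234th. None of the tuft cell, stem cell or Wnt target markers was within the 1000 brightest. The brightest of these were Alox5 (rank 6985) for tuft cells and Rnf43 (rank 2560), Lrig1 and Sox9 for crypt base cells. Of 15 dividing cell markers, Hmgb2 (rank 656) and Mcm6 (rank 977) were within the first 1000, with Stmn1 and Birc5 next.

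Markers of cells beneath the epithelium were dim. No marker of T and NK cells, B and plasma cells, macrophages, neutrophils, eosinophils, mast cells, endothelium, fibroblasts, smooth muscle, adipocytes or enteric neurons was within the 1000 brightest genes. The brightest were Acta2, smooth muscle actin, at 3.60 ± 0.49 (SD, n = 6) and rank 1964, Tagln at rank 2039, Hba-a1 of red blood cells at rank 2393, and Lyz2, lysozyme of macrophages, at rank 2573. Ccl5 led the T and NK cell list at rank 9851, and Jchain, which joins secreted antibodies, led the B and plasma cell list at rank 5651. The antibody chain genes had no probe named by symbol. In these bulk samples, fewer cells of a type and less RNA per cell cannot be told apart.

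Some marker genes were above background in no mouse. Of 11 neutrophil markers on the array, only S100a9 and Mpo were kept, and Camp, Cxcr2, Csf3r, Mmp8 and Retnlg were above background on none of the 6 arrays. The same held for Tek and Tie1 of endothelium, Prph of enteric neurons, Il5ra of eosinophils, Mcpt2 of mast cells, Fga of hepatocytes, and Ivl and Trp63 of squamous epithelium. Lcn2, an iron-binding defence protein, was also above background on none. Among the housekeeping and detoxification lists the genes in this state were Cox8c, Eef1a2, Cyp1b1, Cyp2a12, Cyp2c38 and Cyp4f15. Xist, the transcript of the inactive X chromosome, was above background in all 6 mice at -0.56 ± 0.35 (SD, n = 6). The Y-linked Ddx3y, Kdm5d and Uty were above background in none. Eif2s3y, also Y-linked, was above background on some of the 6 arrays but not on all.

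Cellular systems were next read as lists. Of 82 cytosolic ribosomal protein genes on the array, 80 were kept and 70 were within the 1000 brightest, with a median rank of 194.5. Their median SD was 0.24, close to the 0.253 to 0.293 of all genes in each range of ranks down to 5000. Of 80 nuclear genes of the respiratory chain, 78 were kept and 64 were within the first 1000, led by Cox6a1, Atp5g3, Atp5b and Cox6c. All 4 leading keratins of simple epithelium, Krt8, Krt20, Krt18 (8.05 ± 0.32) and Krt19 (7.78 ± 0.25), were within the first 100. Krt23 and Krt7 ranked 3778th and 5450th.

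Transport, fuel and barrier genes lay lower. The ion and water transport list was led by Aqp8, and the carbonic anhydrases Car1 (6.71 ± 0.44, SD, n = 6) and Car2 (6.66 ± 0.53) were within the first 500 genes. Of 20 fatty acid oxidation and ketogenesis genes, 4 were within the first 500, among them Etfb, Slc16a1, the butyrate transporter, and Acadvl. The junction list was led by Cldn7, F11r, Cldn3 and Cdh1, and the actin list by Myl6 (8.49 ± 0.30), Arpc1b, Myl12b and Ezr.

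Among transcription factors of the hindgut, Klf4, a factor of terminal differentiation, stood alone in the first 100 at 8.59 ± 0.30 (SD, n = 6). Cdx2, which specifies intestine, ranked 754th, Klf5 1289th and Hoxb13, a mark of the distal colon, 1520th. Hoxb13 was low in WT_untreated 1 and 2 (3.07 and 3.05) and higher in the other 4 mice (4.24 to 5.04). Of the detoxification list, 7 of 68 kept genes were within the first 500, led by Gstp1 (7.70 ± 0.18), Gstm1, Ugt1a6b and Cyp2d34. The proteasome list was led by Psmb10, Psma7, Psmd3 and Psma2, the translation factors by Eef1a1 (8.13 ± 0.16), Eef1b2, Eif3l and Eif2s2, and the MHC class I list by H2-K1 (8.14 ± 0.41), H2-D1, H2-T23 and H2-Q10, whose close sequences may share signal.

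Mucin genes other than Muc2 were mostly dim. Muc13, a membrane mucin, ranked 584th at 5.57 ± 0.50 (SD, n = 6), Muc4 ranked 7412th, Muc20 9679th and Muc5ac 10748th. Muc1, the gene absent from the knockout donors, ranked 14145th, at -1.50, -1.72 and -2.25 in WT_untreated and -2.12, -2.90 and -3.80 in KO_untreated. The groups overlapped, and the mean difference of KO minus WT marrow was -1.11 with a standard error of 0.47 (limma, adjusted p = 0.324). The KO marrow mouse on slide 1 lay within the range of the WT marrow mice, and with slide as a block the difference was -0.30. Since the recipients' own epithelium carried Muc1, its signal in scraped mucosa is no direct check of the donor labels.

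Clock, stress and early response genes are sensitive to the time and handling of sampling. Dbp, an output of the circadian clock, ranked 505th and lay at 5.17 and 4.90 in WT_untreated 1 and 2 against 5.91 to 6.36 in the other 4 mice. Per1 was split in the same way, at -0.36 and -0.06 against 0.76 to 1.47. Bhlhe40, Clock and Tef were the next brightest clock genes. The heat shock list was led by Hspa8 (6.75 ± 0.49, SD, n = 6), Hsp90aa1, Hspd1 and Dnajb1, and the early response list by Junb (6.48 ± 0.37), Ier2, Fos and Jun.

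The spread between mice was small for bright genes. Over the 6 mice, the median SD was 0.268 in the 100 brightest genes, 0.37 over all kept genes and 0.523 in the 8063 dimmest. The scanner software's error of a spot had a median of 0.144 on the same scale in every range of ranks down to 10000. It is thus a nearly fixed estimate and not a spread measured for each gene. Repeated spots of a probe within an array had a median SD of 0.108, and 0.0587 to 0.169 by array. None of the 100 brightest genes had an SD above 1, against 18.5% of the dimmest 8063. Mean levels on slide 2 were lower than on slide 1 for 84.0% of the 100 brightest genes, by a median of 0.26, and for 70.4% of the dimmest, by a median of 0.47. The mice of slide 1 alone gave a median SD of 0.257 in the first 100.

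**Figure D3:**
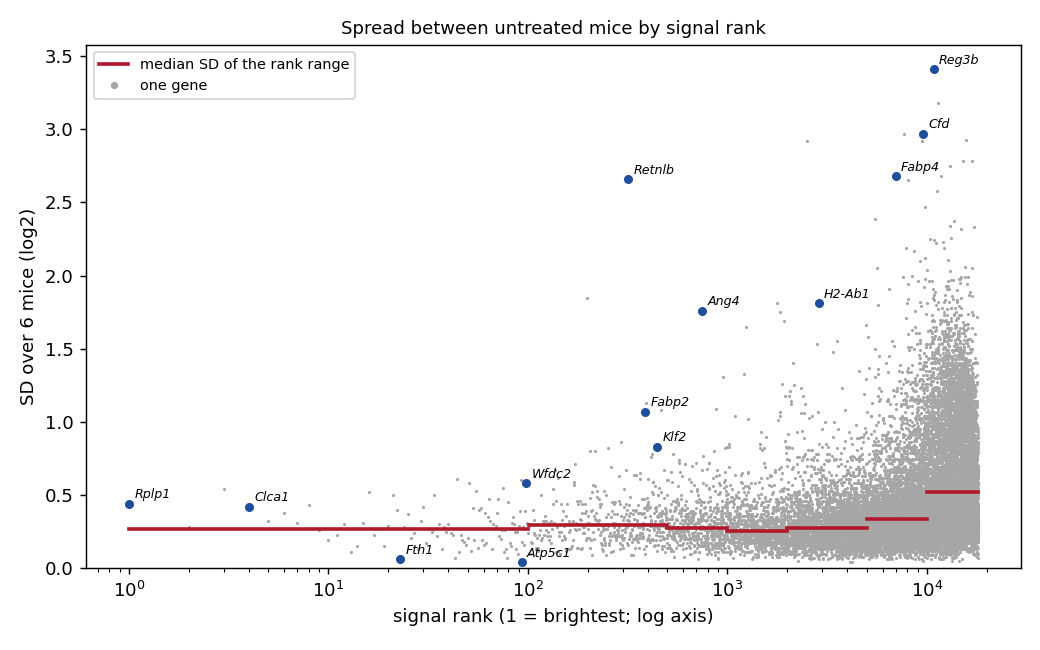
SD over 6 untreated mice (vertical axis, log2) against signal rank (horizontal axis, logarithmic) for each kept gene, with the median of each range of ranks in red. The median stays between 0.253 and 0.293 down to rank 5000 and is 0.523 beyond rank 10000, with Retnlb far above its neighbours.

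Some bright genes varied very little. Among the 500 brightest, Atp5c1, a subunit of ATP synthase, had the smallest SD at 0.04, with levels of 7.66, 7.69 and 7.71 in WT_untreated and 7.78, 7.70 and 7.74 in KO_untreated. Fth1 had an SD of 0.06, and its highest mouse was 1.12 times its lowest. Rps2 had 0.07, and Uqcrc2, Vdac3, Rpl26 and Rpl36 had 0.09 to 0.10, all below the median SD of repeated spots within an array (0.108). Reference genes of quantitative PCR were not equally steady. Gusb (SD 0.10), Pgk1 (0.14) and Hprt (0.16) were among those that varied least. Ywhaz, Tbp, Rplp0, Tfrc and Sdha had 0.23 to 0.36, and Rpl13a, Gapdh, Ppia, B2m and Hsp90ab1 had 0.41 to 0.50. Eef2 (0.77) and Actb (0.92) varied most. The Actb probe was dim, as given above, in a range of ranks (5001 to 10000) with a median SD of 0.335. Its SD is that of this probe and may not hold for the transcript.

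Retnlb had the largest SD of the 500 brightest genes. It encodes RELM-beta, a goblet cell protein that kills Gram-negative bacteria at the mucosal surface and is induced by gut microbes. Its levels were 8.64, 8.90 and 6.57 in WT_untreated and 1.96, 4.54 and 7.31 in KO_untreated, an SD of 2.66 and a 123-fold range. It thus ranked 28th in 1 mouse and 4521st in another. The mouse with the lowest level, KO_untreated 1, lay on the same slide as the 3 WT marrow mice, and slide 1 alone gave an SD of 3.21. Clca1 and Zg16 in the same mouse were 9.32 and 9.80, among the highest of the 6.

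A pair of other defence genes, picked after their values were seen, ordered the mice much as Retnlb did. Ang4, an antimicrobial ribonuclease, lay at 6.80, 7.06 and 4.94 in WT_untreated and 2.45, 3.93 and 5.68 in KO_untreated. Itln1, a lectin that binds microbial sugars, lay at 1.44, 2.09 and 0.02 in WT_untreated and -2.76, -2.18 and 1.06 in KO_untreated. For all 3 genes WT_untreated 1 and 2 were highest and KO_untreated 1 and 2 lowest. The WT and KO marrow groups overlapped for each, and Retnlb was not called (KO minus WT -3.44, standard error 1.22, limma adjusted p = 0.324).

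**Figure D4:**
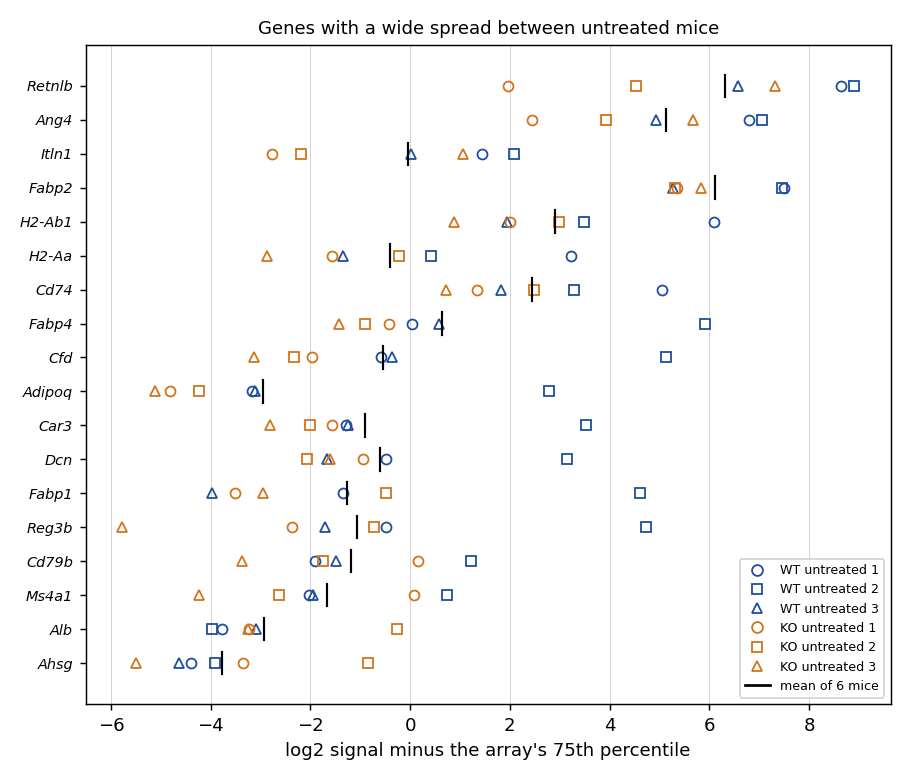
Levels (log2 signal minus the array's 75th percentile, horizontal axis) of genes with a wide spread in each of the 6 untreated mice, WT marrow in blue and KO marrow in orange, with a bar at the mean. Fabp4, Cfd, Adipoq and Car3 stand apart in WT_untreated 2, the MHC class II genes in WT_untreated 1, and Alb and Ahsg in KO_untreated 2.

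Other bright genes with a large SD did not all order the mice in 1 way. Fabp2, the intestinal fatty acid binding protein, lay at 7.50 and 7.45 in these mice and at 5.27 to 5.84 in the other 4. Ptms (SD 0.86), Ceacam1 (0.82) and 1810065E05Rik (0.80) were highest in WT_untreated 1. Klf2 and Lars2 (each 0.83) were lowest there, at 4.55 and 4.74, and highest in WT_untreated 2, at 6.77 and 7.05. Probes with no symbol among the largest SDs are not described. The first principal component of the 499 bright genes without a missing value held 52.5% of the variance and placed WT_untreated 1 and 2 at one end, with scores of -9.15 and -5.05, and KO_untreated 2 at the other, with 6.99.

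Single mice stood apart in dimmer genes, often in several genes of 1 tissue at once. In WT_untreated 2 the fat genes were high: Fabp4, the fatty acid binding protein of adipocytes, lay at 5.91 against -1.43 to 0.57 in the other 5 mice, and Cfd, adipsin, at 5.14 against -3.12 to -0.36. Over the 7 kept adipocyte genes the median was 3.45 in that mouse and -3.03 to -1.16 in the others. Dcn, a fibroblast proteoglycan (3.15 against -2.07 to -0.49), and Tagln (5.66 against 2.30 to 3.84) were also highest there. Adipoq, adiponectin, lay at 2.79 against -5.12 to -3.10. The part of fat, connective tissue and muscle in the other values of this mouse was not tested.

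The same mouse was highest for several genes typical of the upper gut and for the Reg3 pair of defence genes, singled out after their values were seen. Fabp1, the liver and small intestinal fatty acid binding protein, lay at 4.62 against -3.97 to -0.48. Reg3b and Reg3g, bactericidal lectins, lay at 4.73 against -5.77 to -0.48 and at 2.47 against -4.09 to -1.59. The defence list as a whole did not follow: its median was 6.03 in this mouse, 6.13 in WT_untreated 1 and 6.01 in KO_untreated 3, and Saa1 and Saa2 were lowest in it, at 8.36 and 8.32. Apob, Anpep, Rbp2 and Lyz1 led the small intestinal list, and of these Anpep (3.20 against -0.38 to 0.28) and Lyz1 (1.73 against -0.85 to 0.43) were highest in WT_untreated 2 as well. Reg3b had the largest SD of all kept genes, 3.41.

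WT_untreated 1 was highest for antigen presentation. H2-Ab1 lay at 6.10 there against 0.88 to 3.49 in the other 5 mice, Cd74, the invariant chain, at 5.05 against 0.73 to 3.28, and H2-Aa at 3.22 against -2.87 to 0.42. Iigp1, an interferon-inducible GTPase picked after its values were seen, lay at 2.68 against -4.83 to -0.29. B2m, Psmb8 and Psmb9 were highest in the same mouse. The dendritic cell genes Flt3 and Xcr1 did not stand apart in it: Flt3 was at -0.65 there and -0.52 in WT_untreated 2, and Xcr1 was at -0.51 there and -0.80 in WT_untreated 3.

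Lymphoid, blood and plasma protein genes differed between mice too. The B cell genes Ms4a1 and Cd79b were highest in WT_untreated 2 (0.74 and 1.23) and KO_untreated 1 (0.08 and 0.15) and at most -1.48 in the other 4. Over the 9 kept B and plasma cell genes KO_untreated 1 did not stand out. The median was -1.16, -0.71 and -1.76 in WT_untreated and -1.30, -2.87 and -3.27 in KO_untreated. Hba-a1 was highest in WT_untreated 2 and KO_untreated 1, at 4.72 and 4.65 against 1.97 to 3.17. Alb and Ahsg, liver proteins of plasma, were highest in KO_untreated 2, at -0.26 and -0.85 against at most -3.08 and -3.36, while Ttr did not follow. Cela1 and Clps led the pancreatic list at ranks 2110 and 2446, with Ctrb1 and Cel next, all far below Sycn at rank 28.

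The set of brightest genes was stable over mice. The 100 brightest of single untreated arrays shared 81 to 92 genes in the 15 pairs of mice, with a median of 87, and 75 genes were in the first 100 of all 6. Pairs on the same slide shared a median of 89 and pairs on different slides 85.5. At the edge of the first 100, Rpl9, Rpl27, Wfdc2, Rpl5 and Ndufb9 had mean levels of 7.63 to 7.65, and Cox5b, Agr2, Pabpc1, Maoa and Rps13, just outside, had 7.57 to 7.61. Wfdc2, a secreted protease inhibitor, moved most, from rank 57 to rank 260.

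Marrow genotype was tested over all kept genes. None of 18063 genes was called between KO and WT marrow (limma, adjusted p under 0.05; 0%), with the lowest adjusted p at 0.324, while 2770 had an unadjusted p under 0.05. Among the 100 brightest genes the median difference of KO minus WT marrow was -0.16, 1 gene had an unadjusted p under 0.05 and none was called. Krt8 differed by -0.36 (standard error 0.26), Aqp8 by -0.22 (0.28), Zg16 by 0.22 (0.29) and Fth1 by -0.03 (0.21). The count of 0 rests on KO_untreated 1, the only KO marrow mouse on slide 1. Without it, when marrow and slide cannot be told apart, 2526 genes were called. Without WT_untreated 3, 5 were called. With slide as a block in all 6 mice 0 were called by limma and 477 had an unadjusted p under 0.05.

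The untreated profile was then set against treated mucosa. The 100 brightest genes of the 3 WT_untreated arrays, 95 of which were also in the first 100 of all 6 untreated arrays, were followed in the KO marrow mice, whose arrays did not choose them. A gene entered this test if a probe was well above background on every array of at least 1 group, treated groups included. Of all 23747 genes tested, 3.07% were called (1.79% higher and 1.28% lower in KO_AOMDSS than in KO_untreated, limma, adjusted p under 0.05). The tested genes can include some kept only through a treated group where they were bright. The share higher is therefore no like standard for the 100 brightest, which were chosen as bright in untreated mucosa. Of the 100 brightest, 6 fell and 0 rose, and 1 of the 6, Mptx1, had a single treated KO marrow value, so its spread came from the other groups. The treated arrays KO_AOMDSS 1 and 2 lay on slide 3, scanned on another day than all untreated arrays, and had 637 and 583 outlier spots against 48 on KO_AOMDSS 3 and 65 to 147 on KO_untreated, and the part of this in the counts was not tested. Their median difference was -0.26, against -0.12 over all genes tested. With slide as a block these medians were 0.07 and 0.44, so the direction of the bulk of the list turns with that choice. The called genes stayed lower. WT_AOMDSS 3, on slide 2 with a 75th percentile of 153.2, entered both that block and the spread pooled over groups. It stood apart from WT_AOMDSS 1 and 2 for single genes in either direction. Rps12 lay at 10.36 there against 8.66 and 7.98, and Rpl11 at 5.81 against 7.96 and 7.44. The part of this array in the turn of direction was not tested.

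**Figure D5:**
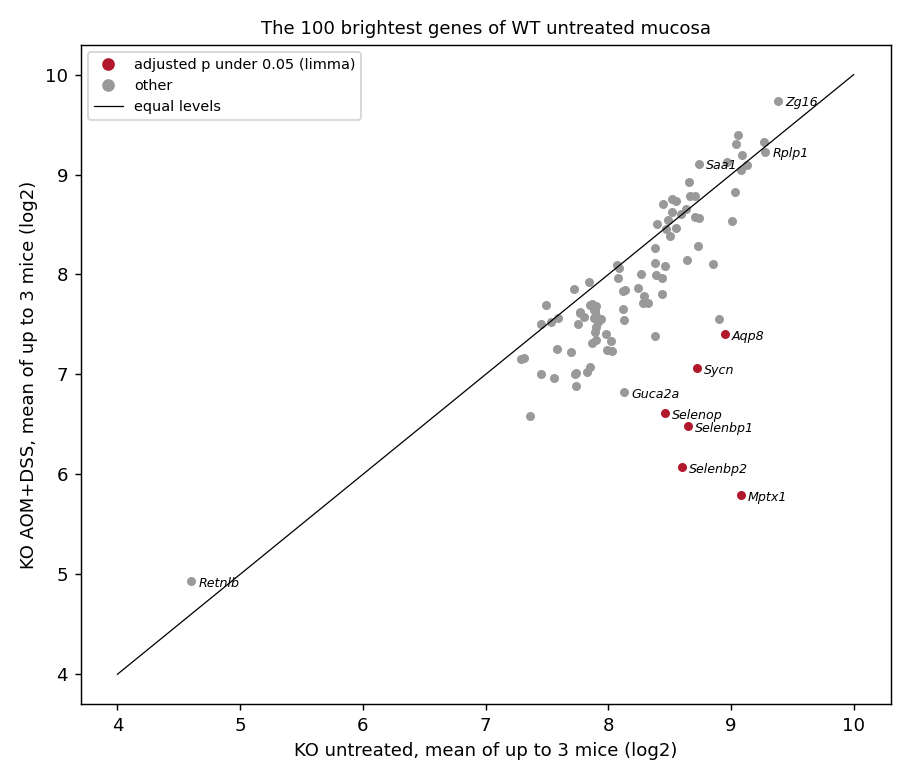
Mean level in KO marrow mice treated with AOM and DSS (vertical axis, log2) against that in untreated KO marrow mice (horizontal axis, log2) for the 100 brightest genes of WT_untreated mucosa, with the genes called by limma in red and a line of equal levels. Aqp8, Sycn, Selenop, Selenbp1, Selenbp2 and Mptx1 lie below the line by 1.55 to 3.29.

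Selenbp2 lay at 8.81, 8.40 and 8.60 in KO_untreated and at 6.26, 5.68 and 6.27 in KO_AOMDSS, a difference of -2.54 (standard error 0.23, limma adjusted p = 0.00015). Selenbp1 lay at 8.92, 8.42 and 8.62 and at 6.64, 6.19 and 6.60, a difference of -2.18 (0.22, limma adjusted p = 0.000388). Neither gene overlapped between the groups, and both were at similar levels in WT_AOMDSS, with means of 6.10 and 6.50. How far the probes of this pair read each other's transcript was not tested.

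Mptx1, at rank 3 of the untreated order, was at 9.16, 8.92 and 9.16 in KO_untreated and had a usable spot on 1 treated KO marrow array, at 5.79. Its difference of -3.29 (standard error 0.71, limma adjusted p = 0.0312) therefore rests on KO_AOMDSS 3, assumed to vary like the other groups, and leaving out any 1 of the other 5 KO marrow mice ended the call, with adjusted p-values by limma of 0.051 to 0.109. Of those 5, KO_AOMDSS 1 and 2 held no usable value of this gene. Leaving out either kept the difference at -3.29 (standard error 0.72), since the gene's own values did not change. With the outlier spots kept, the treated levels were 5.68, 4.94 and 5.79 and the difference -3.61 (limma adjusted p = 0.00177). The WT_AOMDSS mice lay at 4.61, 4.85 and 6.70, also far below their untreated counterparts.

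Selenop, the plasma selenium carrier, differed by -1.85 (standard error 0.33, limma adjusted p = 0.0112), with KO_AOMDSS 2 missing. Sycn differed by -1.66 (0.28, adjusted p = 0.00667 by limma) and Aqp8 by -1.55 (0.35, adjusted p = 0.0306 by limma). Aqp8 lay at 7.80, 6.85 and 7.55 in KO_AOMDSS, below all untreated mice, but with slide as a block its difference was -1.03 and its limma adjusted p 0.139. That block takes in WT_AOMDSS 3, where Aqp8 lay at 8.14 against 7.48 and 6.87 in WT_AOMDSS 1 and 2. The part of that array in the lost call was not tested. Leaving out any of the 6 KO marrow mice also ended the call of Aqp8, with adjusted p-values by limma of 0.0529 to 0.138. Without KO_AOMDSS 1 or 3 the count of called genes was 3, and Selenop lost its call as well (adjusted p = 0.0628 and 0.0752 by limma).

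Further large differences did not pass the test. Prdx6 differed by -1.35 (limma adjusted p = 0.0538), Guca2a by -1.31 (0.24) and Chchd2 by -0.86 (0.156). The largest positive values were 0.37 for Saa1, 0.36 for Zg16, 0.34 for Lgals4, 0.33 for Retnlb and 0.27 for Lrrc58, with limma adjusted p-values of 0.603 to 0.929.

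The 100 brightest genes of single arrays were also compared across conditions, with no test. Single untreated and treated arrays shared 65 to 76 of their 100 brightest genes in 36 pairs, with a median of 70, which lay below every pair of untreated mice. Treated pairs shared 63 to 84, with a median of 77. The low end came from WT_AOMDSS 3, whose 75th percentile was 153.2 against 332 to 767.8 on the other arrays. Treated pairs with it shared 63 to 71, and those without it 76 to 84. The 4 untreated and treated pairs on the same slide shared a median of 69.5, about that of pairs on different slides (70). Of these same-slide pairs, those with WT_AOMDSS 3 shared 67 and 65, and those with KO_AOMDSS 3 shared 73 and 72.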

How the data were processed

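Each sample was the RNA of 1 mouse's colon mucosa, labelled with Cy3 and hybridised to an Agilent mouse array. The deposited intensities came, per the file headers, from Feature Extraction 10.7.3.1, which corrected background and detrended each array but did not scale arrays to each other. From them, log2 signal minus the array's 75th percentile was computed over gene spots, spots marked as outliers were left out, and spots of a probe were averaged. Symbols came from RefSeq (GRCm38.p6, names only): 24375 of 41174 probes had one. A gene was represented by its brightest kept probe. Groups were compared with limma 3.58.1 in R 4.3.3 (lmFit, eBayes with an intensity trend, Benjamini-Hochberg adjustment, threshold 0.05), which was tested on simulated data. The p-values rest on the spread between mice within a group, with up to 3 mice each. In the marrow test that spread was pooled over the untreated groups. In the treated test it was pooled over all treated and untreated groups, WT marrow included.

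The 30 brightest named genes were named in the text, with the 10 largest and 10 smallest SDs of the first 500, the 4 brightest of each list, list members above background on no array, the genes around rank 100, reference genes, Muc1, and the largest treated differences. Ang4, Itln1, Reg3b, Reg3g, Fabp1, Adipoq, Per1, Psmb8, Xcr1, Iigp1 and Actg1 were singled out after their values were seen. The members, lists and tests were chosen with earlier results of these data known. Alternatives covered scaling, background, probes per gene, filters, outlier spots, slide, pairing and left-out mice. The normexp alternative used median spot signals. The authors' table of group means was not used. Some genes that this rule names are not reported here.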

Additional observations from a re-analysis of the deposited data

Results flagged for a closer look

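In 2 of 51 named genes, 1 mouse lay far from the other 5 by Dixon's test, about what chance gives, since it marks about 1 in 20 groups. Both were in WT_untreated 2: Prdx6 was at 8.34 there and at least 8.80 in the other mice (ratio 0.726), and Rpl5 was at 7.06 there and at least 7.61 in the others (ratio 0.681). The same mouse had the highest fat, connective tissue and muscle signal, and the part of these tissues in both values was not tested.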

How the results depend on the processing

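The median SD of the 100 brightest genes (0.268) was 0.196 after quantile normalization and 0.389 with the array median as the scale. That of all kept genes (0.37) was 0.568 with the array median and 0.476 when genes above background on at least 3 of 6 arrays were kept. The share of signal in the 100 brightest genes (24.9%) was 27.3% and 27.2% with the mean or median of a gene's probes. Leaving out 1 mouse gave 0 to 2526 genes called between KO and WT marrow. For treated against untreated KO marrow mice, leaving out 1 mouse gave 3 to 4 genes lower, taking the 200 brightest genes gave 11, and slide 2 alone gave 18 lower and 3 higher, from 1 treated array assumed to vary like the other groups. The share of all tested genes called on slide 2 alone, or with 1 mouse left out, is not given here. Those counts therefore do not show whether bright genes were called more often than other genes. Replicate numbers did not pair the mice (correlations of 0.395, -0.156 and 0.38). With the replicate block 0 genes were called between marrow groups and 6 lower and 0 higher between treatments. With the mean or median of a gene's probes, 81 of the 100 brightest genes remained and 15 of 41 named levels moved by more than their SD, among them Prdx6 (8.81 to 4.43 and 5.04), Ldha (8.65 to 7.35 with either), Rpl7a (8.98 to 7.49 and 7.44) and Ceacam1 (6.62 to 3.83 and 2.58). Normexp kept 93 of the 100 and also moved 15 levels, the array median moved all 41 and quantile normalization 2. Mptx1 without KO_AOMDSS 3 gave no value. The causes were not tested. Dim genes near background, and the 6 arrays, limit the precision.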
